A study of Oryctolagus cuniculus with 12 samples.

Results

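The genes described here make cholesterol and fatty acids. They were chosen by name: 38 gene symbols were looked up in a table of 29587 genes, and 25 had a row under their symbol. Of the 25, 11 belong to the sterol branch (17 listed), 10 to the fatty acid branch used by sebaceous gland and epidermis (16 listed), and 4 were kept apart as regulators, transport or esterification (5 listed). MVD, IDI1, TM7SF2, HSD17B7, EBP, DHCR7, SREBF1, FASN, SCD, ELOVL1, FADS1, ACSL1 and DGAT2 had no row under these symbols. No symbol was repeated. Requiring an average FPKM over all samples of 1 or more kept 24 of the 25 for testing and left out AWAT2.

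Cells build cholesterol from acetyl-CoA through mevalonate, squalene and lanosterol, and the enzymes along this route share a transcription factor that is activated when sterols in the cell run low. Fatty acids are made from the same acetyl-CoA, then lengthened by elongases, given double bonds by desaturases and joined to glycerol, cholesterol or fatty alcohols. In skin, the epidermis uses cholesterol and long fatty acids for its barrier, and sebaceous glands release triglycerides, wax esters and squalene as sebum.

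Rabbit ears were compared in 4 groups of 3 animals. All were wild-type females aged 10 to 12 weeks, of a strain not given in the sources used here. NS was normal ear skin. HS was untreated hypertrophic scar, which formed after wounds cut into the ventral ear had been cleared of epidermis, dermis and perichondrium. Tissue newly formed in the wounds was also removed during the weeks that followed. In the drug-loaded MNs group each scar received 1 separating microneedle patch, whose tips stay in the skin and carry a prodrug of 5-fluorouracil acetic acid. In the 5-Fu injection group each scar received 0.1 mL of 5-fluorouracil (120 μg), an inhibitor of DNA synthesis. Both treatments were given on days 22, 29 and 36, and all ears were harvested on day 43. The labels give no drug dose for the patch, so the treatments are not set at a matched dose, and scars given patches without drug were not analysed here.

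Bulk RNA-seq of the full thickness of the ear gave 10521472 to 14043667 reads on genes per sample. Levels are FPKM, reads per gene length and library size, which the authors had already scaled between samples. The change of a gene is given on the log2(FPKM + 1) scale, which understates the change of genes near or below an FPKM of 1. Tests are from limma, with p-values adjusted over all 13287 genes tested, and a differentially expressed gene (DEG) has an adjusted p under 0.05 and a log2 fold change beyond 1 in size. The tissue holds epidermis, dermis, glands and cartilage together, and in such bulk samples fewer cells of a type and less RNA per cell cannot be told apart. The summed FPKM of 4 cartilage genes ran from 322 to 4933 over the samples, so cartilage transcripts varied widely between ears of the same group.

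In HS, the sterol branch lay lower than in NS as a whole. All 11 genes had a lower mean in HS, by 0.18 to 0.97 on the log2 scale, with a median log2 fold change of -0.68 against -0.01 over all genes tested. SQLE passed the adjusted threshold, at a size under the DEG limit. The 11 genes summed to an FPKM of 517, 422 and 330 in NS and of 196, 253 and 329 in HS, so the highest HS sample reached the lowest NS sample. The summed FPKM of 8 epidermis markers moved the same way, from 3331 to 5143 in NS and from 1697 to 2839 in HS, and their part in the sterol levels was not tested.

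Squalene epoxidase, SQLE, carries out the oxidation that opens the cyclisation of squalene and is a control point of the pathway (ENSOCUG00000015771, chromosome 3, 140710644 to 140735727, plus strand; genome build not given in the sources used here). Its FPKM was 52.5, 41.8 and 40.8 in NS and 25.1, 23.1 and 30.0 in HS. Every HS sample lay below every NS sample. SQLE fell by 0.76 on the log2 scale (SE 0.197, limma adjusted p = 0.0401). Over all genes, 7.45% passed the adjusted threshold alone in this comparison. The SQLE call was lost when any single NS or HS sample was left out, with an adjusted p between 0.0583 without NS replicate 3 and 0.154 without NS replicate 1. It was also lost without drug-loaded MNs replicate 1 (adjusted p = 0.0552) or replicate 2 (0.0513), which enter the shared estimate of the spread, and with no filter on low values (0.0604).

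Methylsterol monooxygenase, MSMO1, removes methyl groups from lanosterol products and had the highest FPKM of the branch. It was measured at 109, 91.7 and 60.9 in NS and at 32.2, 37.8 and 63.5 in HS. HS replicate 3 stood at the level of the lowest NS sample. Its log2 fold change was -0.97 (SE 0.307, limma adjusted p = 0.0820), and without HS replicate 3 it was -1.26 with an adjusted p of 0.0496.

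Squalene synthase, FDFT1, commits the pathway to sterols. Its FPKM was 63.1, 47.4 and 38.5 in NS and 17.1, 27.8 and 35.5 in HS, with no overlap. CYP51A1, which demethylates lanosterol, stood at 49.6, 43.8 and 30.6 in NS and at 14.8, 22.3 and 33.5 in HS, where the ranges overlapped. Their log2 fold changes were -0.90 (SE 0.278, limma adjusted p = 0.0774) and -0.83 (SE 0.283, adjusted p = 0.106).

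HMGCS1 makes the HMG-CoA from which mevalonate is formed (ENSOCUG00000003569, chromosome 11, 64085210 to 64098813, minus strand). Its FPKM was 53.0, 42.8 and 38.8 in NS and 17.6, 30.4 and 38.2 in HS. The samples did not overlap, by a narrow margin. The log2 fold change was -0.68 (SE 0.285, limma adjusted p = 0.179).

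The other sterol genes gave log2 fold changes from -0.18 to -0.68. They are the kinases MVK and PMVK of mevalonate and its phosphate, the farnesyl diphosphate synthase FDPS, the lanosterol synthase LSS, and NSDHL and SC5D of the late steps. Their adjusted p ran from 0.0734 for LSS to 0.792 for PMVK. Without regard to adjustment, 7 of the 11 sterol genes were lower at a p under 0.05, where 10.2% of all genes were. The count was 4 of 11 without NS replicate 1 or without HS replicate 1, and the branch median was then -0.53 and -0.42. HS lay fully below NS in 4 of the 11, where 15.3% of all genes did.

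The sterol genes moved together between ears of the same group. In NS, replicate 1 was the highest for 11 of 11 genes and replicate 3 the lowest for 11 of 11. In HS, replicate 3 was the highest for 10 of 11 and replicate 1 the lowest for 9 of 11. PMVK was the gene that had its highest HS value in replicate 1, at 16.1. In the 5-Fu injection group replicate 2 was lowest for 8 of 11, while in the drug-loaded MNs group no sample led for more than 5 of 11. The order in HS was not particular to the sterol genes. There replicate 1 was also lowest for 9 of 10 fatty acid genes and for 4 of 4 genes kept apart. Replicate 3 was highest in HS for 5 of 10 and 4 of 4. In NS, replicate 1 was highest for 4 of 10 fatty acid genes.

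**Figure D1:**
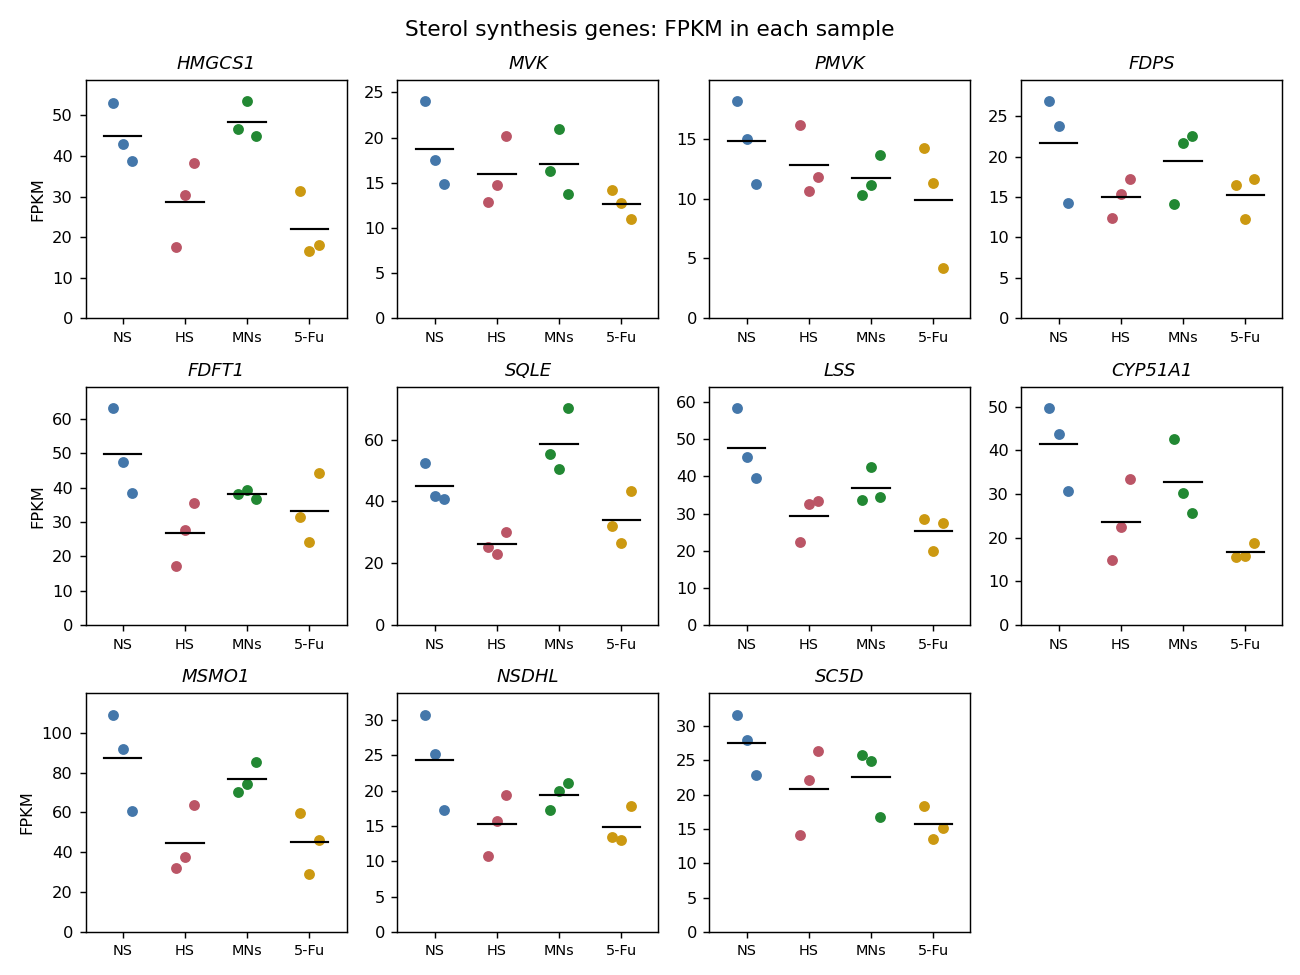
FPKM (linear axes from 0) of the 11 sterol genes in each sample, with points for samples and bars for group means of 3 samples (NS, HS, drug-loaded MNs as MNs, 5-Fu injection as 5-Fu). HS means lie below NS means in all 11 panels, and for SQLE the MNs samples, at 50.6 to 70.2, lie above every HS and every 5-Fu sample.

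After drug-loaded MNs, 10 of the 11 sterol genes had a higher mean than in HS, with a median log2 fold change of 0.35 against -0.02 over all genes. PMVK was the exception, at -0.11. Epidermis markers were higher in the same comparison, 8 of 8 with a median of 1.46, and so were 9 of 9 sebaceous gland markers with a median of 0.47, and their part in the sterol levels was not tested. None was a DEG in limma, nor in limma voom on reads counted back from the FPKM, and 0.00753% of all genes were, a single gene. At an unadjusted p under 0.05, 3 were higher, SQLE, HMGCS1 and MSMO1, where 4.78% of all genes were higher. The count was 1 of 11 without HS replicate 1, where the median was 0.22. It was 5 of 11 without HS replicate 3 and 6 of 11 on FPKM rescaled to the reads on genes. That rescaling raised the median of all genes as well. The share of all genes at that p is not given here for these settings. In 5 genes (HMGCS1, FDFT1, SQLE, LSS and MSMO1) the drug-loaded MNs samples lay wholly above HS, against 8.53% of all genes.

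SQLE was measured at an FPKM of 55.4, 50.6 and 70.2 after drug-loaded MNs. These samples lay above all HS samples, and 2 of the 3 lay above the highest NS sample. The log2 fold change to HS was 1.14 (95% confidence interval 0.70 to 1.57, limma adjusted p = 0.188), a mean 2.25 times that of HS. Its adjusted p was the smallest among the 24 tested genes in this comparison.

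HMGCS1 stood at 46.6, 53.5 and 45.0 after drug-loaded MNs, above all 3 HS samples and within or just above the NS range. MSMO1 stood at 70.1, 74.0 and 85.5, above all HS samples and within the NS range. Their log2 fold changes to HS were 0.79 (SE 0.285, limma adjusted p = 0.462) and 0.82 (SE 0.307, adjusted p = 0.482). FDFT1 was 38.0, 39.3 and 36.7, above HS but near the lowest NS sample. CYP51A1 was 42.5, 30.2 and 25.6, which overlapped HS.

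After 5-Fu injection the sterol genes were not set apart from HS. Of the 11, 4 had a higher and 7 a lower mean, with a median log2 fold change of -0.21 against 0.02 over all genes. None was a DEG in limma or limma voom, where 2.29% of all genes were, and none passed an unadjusted p of 0.05 in either direction. Of all genes, 11.6% were higher and 14.4% lower at that p. Without HS replicate 1 the count of lower genes at that p was 3, and without 5-Fu injection replicate 1 it was 2. Without 5-Fu injection replicate 2, or on rescaled FPKM, 1 gene was higher at that p. No sterol gene had groups without overlap, against 13.9% of all genes wholly higher and 16.4% wholly lower.

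HMGCS1 stood at 31.3, 16.5 and 18.1 after 5-Fu injection, with a log2 fold change to HS of -0.36 (SE 0.285, limma adjusted p = 0.449). CYP51A1 was 15.6, 15.8 and 18.9, inside the HS range, with a log2 fold change of -0.40 (SE 0.283, adjusted p = 0.392). PMVK, at 14.2, 11.3 and 4.16 after 16.1, 10.6 and 11.8 in HS, had the largest difference of the branch, -0.47 (SE 0.347, adjusted p = 0.417). The value of 4.16 came from 32 reads. PMVK in NS was 18.1, 14.96 and 11.2, and after drug-loaded MNs 10.3, 11.2 and 13.7.

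SQLE was 31.9, 26.6 and 43.4 after 5-Fu injection, overlapping both HS and NS. MSMO1 was 59.6, 29.2 and 46.1, and FDFT1 31.5, 24.2 and 44.2, each overlapping HS. The 11 genes summed to 275, 195 and 263 after 5-Fu injection and to 370, 389 and 385 after drug-loaded MNs. The treated groups therefore did not overlap in this sum.

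Set directly against each other, the treatments differed in the same direction for all 11 sterol genes, which were higher after drug-loaded MNs by 0.23 to 1.16 on the log2 scale (median 0.48, against 0.00 over all genes). No gene of either branch, and 0 of all genes tested (0%), was a DEG in limma, and limma voom called none of the 24. At an unadjusted p under 0.05, 5 sterol genes were higher (HMGCS1, SQLE, LSS, CYP51A1 and MSMO1), where 8.15% of all genes were, and none was lower, where 6.97% were. The same 5 had samples that did not overlap, against 8.64% of all genes wholly higher and 8.42% wholly lower. Without 5-Fu injection replicate 2 the count at that p was 3. HMGCS1 showed the largest difference, 1.16 (95% confidence interval 0.53 to 1.78, limma adjusted p = 0.246), a mean of 48.3 against 22.0.

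In the fatty acid branch, HS and NS differed gene by gene, not as a group. Of 9 tested genes 6 had a higher and 3 a lower mean in HS, with a median log2 fold change of 0.15. That direction is not firm: on FPKM rescaled to the reads on genes, which shifts the median of all genes to -0.33, the count was 4 higher and 5 lower and the median -0.18, still 0.15 above the median of all genes. Against the same shift the sterol branch stood at -1.03, or -0.70 below all genes, with 11 of 11 lower. Among the 24 genes in all, 1 was a DEG in HS, SCD5, where 5.00% of all genes were. On rescaled FPKM 7 were DEGs, all lower in HS (HMGCS1, FDFT1, SQLE, LSS, CYP51A1, MSMO1 and ELOVL6), and SCD5 was not. The share of all genes called on rescaled FPKM is not given here, so the 7 cannot be set against it. At an unadjusted p under 0.05, 1 fatty acid gene was higher, against 13.2% of all genes, and 2 were lower (ELOVL6 and GPAM), against 10.2%. Without HS replicate 1 these counts were 2 and 1, and the branch median was 0.45. The higher count was also 2 without drug-loaded MNs replicate 3 or without 5-Fu injection replicate 1 or 3, and the lower count 1 without NS replicate 1 or 3.

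SCD5, a desaturase that places a double bond in stearoyl-CoA, was the DEG (ENSOCUG00000005937, chromosome 15, 67559293 to 67718099, plus strand). Its FPKM was 11.3, 9.20 and 11.7 in NS and 22.4, 63.7 and 28.3 in HS. All HS samples lay above all NS samples, and the second HS sample stood far above the others. SCD5 rose by 1.60 on the log2 scale (SE 0.417, limma adjusted p = 0.0413), to a mean 3.55 times that of NS. Without HS replicate 2 the log2 fold change was 1.16 with an adjusted p of 0.125. The call was also lost without HS replicate 3 (adjusted p = 0.0776), without NS replicate 1 (0.110), 2 (0.112) or 3 (0.0735), without drug-loaded MNs replicate 1 (0.0546), with no filter (0.0742) and on rescaled FPKM (0.0534).

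FADS2, a desaturase of polyunsaturated fatty acids that also makes a sebum fatty acid in humans, stood at 62.1, 42.8 and 58.6 in NS and at 76.3, 81.7 and 90.9 in HS. HS lay above NS in every sample, with a log2 fold change of 0.61 (SE 0.283, limma adjusted p = 0.221). ELOVL5, an elongase of polyunsaturated fatty acids, was also wholly higher in HS, with a log2 fold change of 0.45 (adjusted p = 0.313). With SCD5 these made 3 of the 9 fatty acid genes, against 18.0% of all genes.

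ELOVL6 and GPAM moved in the opposite direction. ELOVL6, which lengthens palmitate, had an FPKM of 27.7, 20.1 and 18.7 in NS and 7.76, 11.8 and 16.03 in HS. GPAM, the acyltransferase that opens glycerolipid synthesis, had 12.6, 8.59 and 12.2 in NS and 5.58, 7.81 and 6.95 in HS. Both were lower in HS without overlap, so 2 of the 9 tested fatty acid genes were wholly lower, against 15.3% of all genes. The log2 fold changes were -0.88 for ELOVL6 (SE 0.251, limma adjusted p = 0.0583; -1.11 with an adjusted p of 0.0399 without HS replicate 3) and -0.64 for GPAM (SE 0.242, adjusted p = 0.141).

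ACLY and ACACA, which supply acetyl-CoA and malonyl-CoA for both chain building and elongation, lay close together in HS and NS. Their log2 fold changes were 0.15 (95% confidence interval -0.09 to 0.40) and 0.14 (-0.22 to 0.50), and turned to -0.20 and -0.18 on rescaled FPKM. ELOVL3, an elongase of sebaceous gland and hair follicle, was low throughout, at 2.08, 2.17 and 0.524 in NS and 1.25, 2.06 and 6.02 in HS. Its highest HS value rested on 60 reads. FAR2, which makes fatty alcohols for wax esters, gave a log2 fold change of -0.03 (SE 0.451, limma adjusted p = 0.982), with 0.707 to 4.82 in HS.

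**Figure D2:**
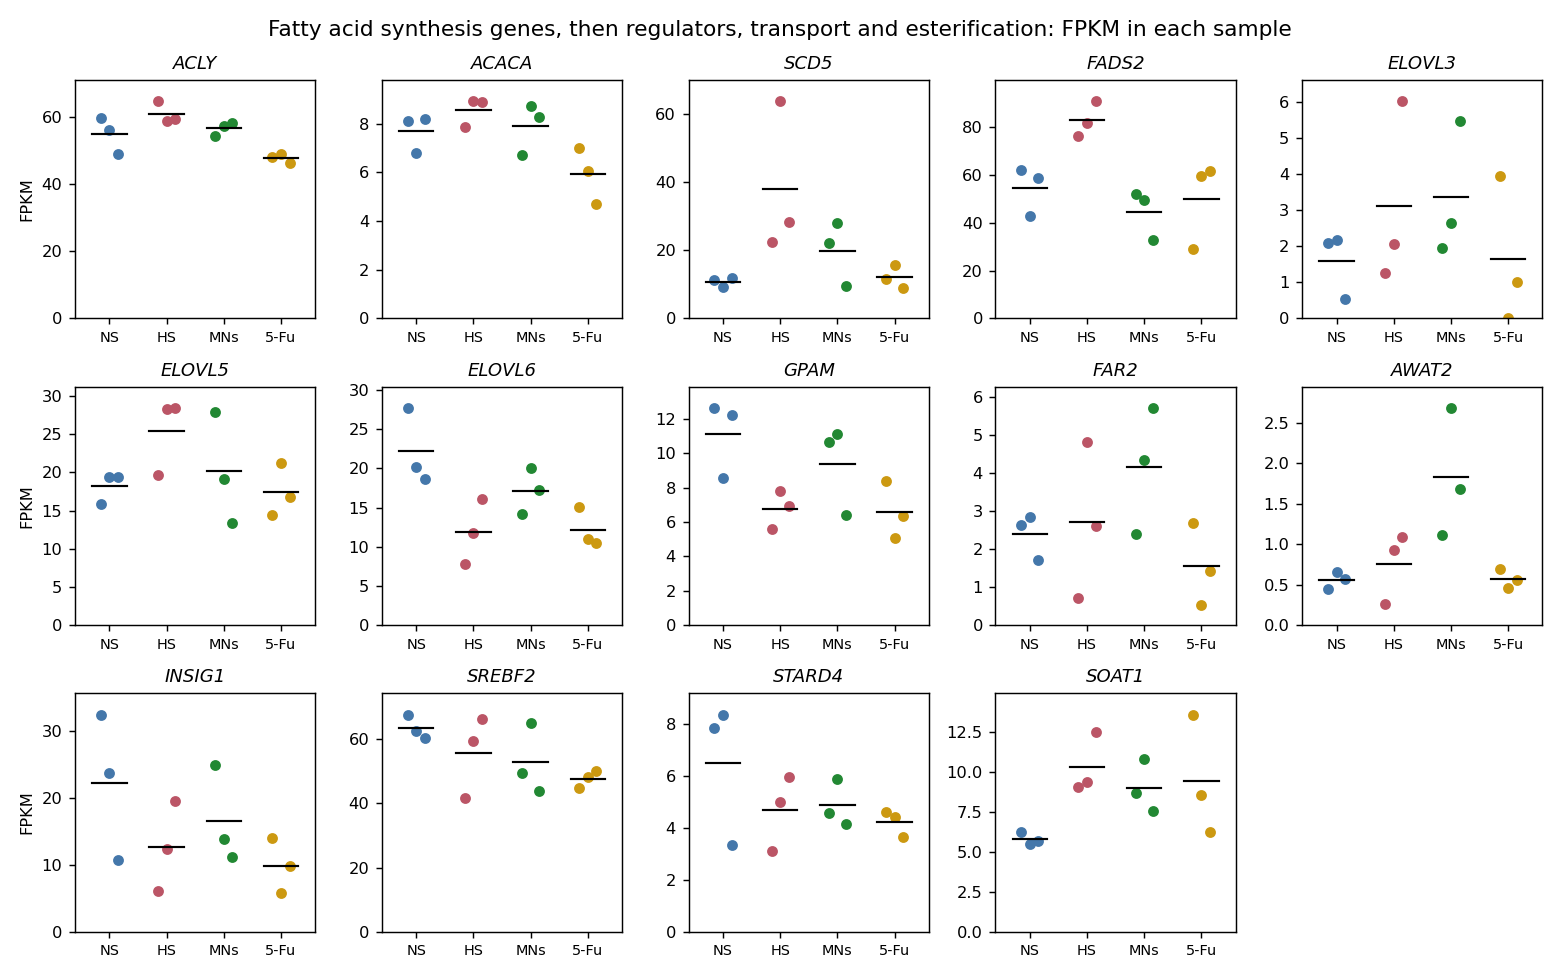
FPKM (linear axes from 0) of the 10 fatty acid genes and of the 4 regulators and esterification genes in each sample, with bars for group means of 3 samples and the same groups as for the sterol genes. SCD5 and FADS2 are highest in HS, ELOVL6 and GPAM highest in NS, and AWAT2 highest after drug-loaded MNs at an FPKM of 1.11 to 2.68.

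After drug-loaded MNs the fatty acid branch split, with 4 of 9 genes higher and 5 lower than in HS and a median log2 fold change of -0.10, which was 0.04 on rescaled FPKM where all genes shifted to 0.11. FADS2 was the single gene lower at an unadjusted p under 0.05, where 4.12% of all genes were, and the count was 2 without HS replicate 1 or without drug-loaded MNs replicate 1 or 2. FADS2 stood at 52.0, 49.5 and 32.6, below every HS sample, with a log2 fold change of -0.90 (SE 0.283, limma adjusted p = 0.375). ACLY, at 54.4 to 58.1 against 58.8 to 64.6 in HS, also did not overlap, so 2 of 9 genes were wholly lower, against 10.3% of all genes.

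SCD5 stood at 22.2, 27.9 and 9.44 after drug-loaded MNs, with 2 samples near the lower HS values and 1 at the NS level. The log2 fold change to HS was -0.89 (SE 0.417, limma adjusted p = 0.577). ELOVL6, at 14.2, 20.0 and 17.2, and GPAM, at 10.7, 11.2 and 6.38, lay between HS and NS in their means. ELOVL3 was 1.95, 2.64 and 5.47, inside the HS range.

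After 5-Fu injection the fatty acid genes lay lower than in HS for 8 of 9, with a median log2 fold change of -0.48, and -0.37 on rescaled FPKM where all genes shifted to 0.13. None was a DEG in limma or limma voom, where limma called 2.29% of all genes. At an unadjusted p under 0.05, 4 of 9 were lower (SCD5, FADS2, ACACA and ACLY), where 14.4% of all genes were. The same 4 were wholly below HS, as were 16.4% of all genes. ELOVL6, at 15.1, 11.0 and 10.5, was the gene with a higher mean, by 0.07.

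SCD5 returned values of 11.5, 15.5 and 8.92 after 5-Fu injection, below all HS samples and around the NS values. The log2 fold change to HS was -1.48 (95% confidence interval -2.39 to -0.56, limma adjusted p = 0.0649), the smallest adjusted p of the 24 genes in this comparison. SCD5 passed as a DEG without drug-loaded MNs replicate 3, at an adjusted p of 0.0443, and the count of DEGs was likewise 1 without 5-Fu injection replicate 2. FADS2 stood at 28.8, 59.4 and 61.8, with 1 sample far below the other 2, and a log2 fold change of -0.79 (SE 0.283, adjusted p = 0.115). GPAM was 8.40, 5.05 and 6.34, which overlapped HS.

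ACLY was 48.2, 48.9 and 46.2 after 5-Fu injection, below every HS sample, with a log2 fold change to HS of -0.35 (SE 0.112, limma adjusted p = 0.0902). ACACA was 7.01, 6.07 and 4.69, with a log2 fold change of -0.48 (SE 0.165, adjusted p = 0.106). Between the treatments, 8 of 9 fatty acid genes were higher after drug-loaded MNs (median 0.44), 2 of them at an unadjusted p under 0.05, FAR2 and ACACA, where 8.15% of all genes were. Neither was left without drug-loaded MNs replicate 2, without 5-Fu injection replicate 2 or without 5-Fu injection replicate 3, and without 5-Fu injection replicate 1 the count was 5. It was 1 without NS replicate 1 or without any single HS sample.

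The genes of wax ester formation were low. AWAT2, which had the lowest mean FPKM of the 25, the acyltransferase that joins fatty alcohols to fatty acids, had an FPKM of 0.441, 0.661 and 0.570 in NS, 0.265, 0.924 and 1.09 in HS, 1.11, 2.68 and 1.68 after drug-loaded MNs and 0.688, 0.464 and 0.553 after 5-Fu injection. Every drug-loaded MNs sample lay above every other sample, by a narrow margin: drug-loaded MNs replicate 1 (1.11) and HS replicate 3 (1.09) each had 14 reads. These values came from 3 to 34 reads, and the gene did not pass the filter. Fitted with no filter, its log2 fold change from HS to drug-loaded MNs was 0.68 (SE 0.227, limma adjusted p = 0.541 over 21417 genes).

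FAR2 was 2.39, 4.34 and 5.71 after drug-loaded MNs and 2.70, 0.524 and 1.41 after 5-Fu injection, from 12 to 137 reads over all samples. ELOVL3 was 3.94, 0 and 1.02 after 5-Fu injection. The 0 is a count of 0 reads, which allows an FPKM of up to 0.359, a limit that covers counting error only.

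Kept apart from both branches, SREBF2 encodes the transcription factor that drives the sterol genes. It had the smallest standard error of the 4 genes kept apart, with an FPKM of 67.4, 62.3 and 60.2 in NS, 41.7, 59.3 and 66.1 in HS, 49.5, 65.0 and 43.9 after drug-loaded MNs and 44.8, 48.2 and 50.1 after 5-Fu injection. HS overlapped NS. After 5-Fu injection SREBF2 lay wholly below NS, with a log2 fold change of -0.40 (SE 0.185, limma adjusted p = 0.339). The share of all genes wholly below NS in that comparison is not given here. The log2 fold change from NS to HS was -0.21 (95% confidence interval -0.61 to 0.20, limma adjusted p = 0.543).

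INSIG1, which holds that factor in the endoplasmic reticulum and is itself among its targets, had the largest standard error of the 4. Its FPKM was 32.3, 23.6 and 10.6 in NS, 6.12, 12.4 and 19.5 in HS, 24.8, 13.8 and 11.1 after drug-loaded MNs and 14.0, 5.72 and 9.77 after 5-Fu injection. In NS and HS, INSIG1 ranked the ears in the order that the sterol genes did. The log2 fold change from NS to HS was -0.76 (SE 0.484, limma adjusted p = 0.382), within the spread between samples. STARD4, a carrier of sterols between membranes, was lower in HS by -0.36 (adjusted p = 0.511), with a range of 3.09 to 8.34 over all samples.

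SOAT1, which esterifies cholesterol for storage, was the only one of these 4 with a higher mean in HS. It stood at 6.27, 5.51 and 5.69 in NS, 9.04, 9.37 and 12.5 in HS, 8.69, 10.8 and 7.59 after drug-loaded MNs and 13.6, 8.57 and 6.28 after 5-Fu injection. All samples of the 3 scar groups lay above all NS samples, though the lowest 5-Fu injection value (6.28) was almost equal to the highest NS value (6.27). Log2 fold changes to NS were 0.72 in HS (SE 0.239, limma adjusted p = 0.0973), 0.55 after drug-loaded MNs (adjusted p = 0.371) and 0.56 after 5-Fu injection (adjusted p = 0.309). On rescaled FPKM the change in HS was 0.40 (adjusted p = 0.227).

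**Figure D3:**
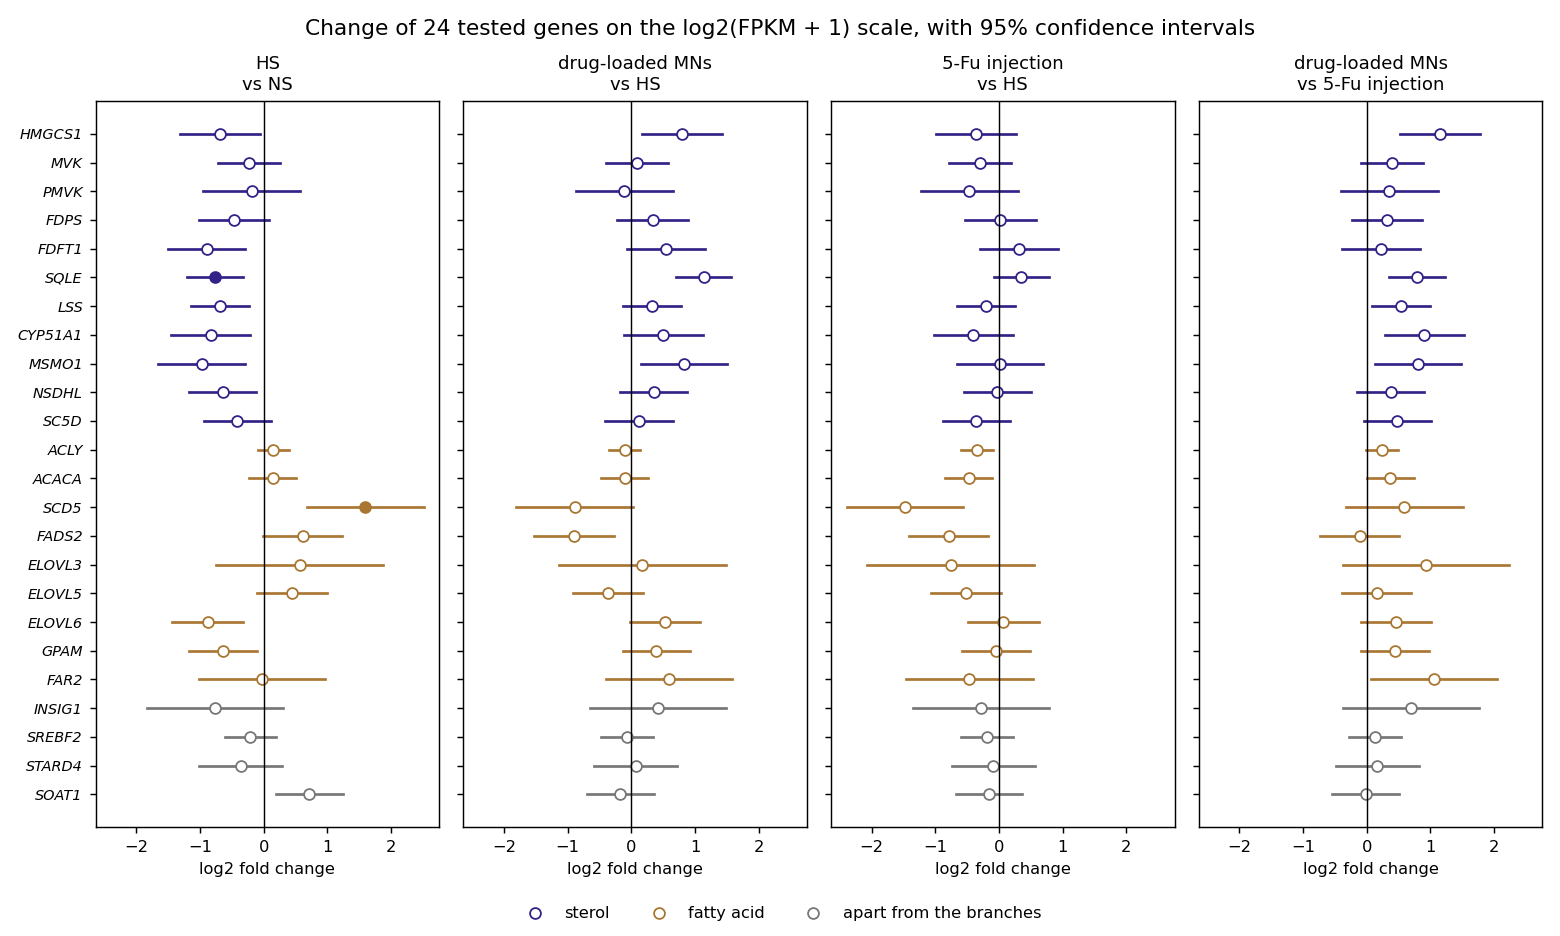
Log2 fold change on the log2(FPKM + 1) scale (x axis) with its 95% confidence interval for the 24 tested genes in 4 comparisons, coloured by branch and filled where the limma adjusted p was under 0.05. Filled points are SQLE at -0.76 and SCD5 at 1.60 in HS vs NS, all sterol points lie right of 0 in drug-loaded MNs vs 5-Fu injection, and these comparisons share samples.

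Against NS, the sterol genes after drug-loaded MNs had a lower mean in 9 of 11 (median -0.29, all genes 0.00), and SQLE and HMGCS1 a higher one, by 0.37 and 0.11. After 5-Fu injection 11 of 11 were lower than in NS (median -0.66, all genes 0.01). None of the 24 genes was a DEG against NS after either treatment, in limma or in limma voom, where DEGs made up 0.873% of all genes in the first case and 0.00753% in the second. With an unadjusted p under 0.05, 1 of 24 was higher than NS after drug-loaded MNs (SOAT1; 7.68% of all genes) and 0 lower (5.25%). After 5-Fu injection 1 was higher (SOAT1; 7.93%) and 9 were lower (6.98%), 7 of them sterol genes. CYP51A1 was the lowest, by -1.23 (SE 0.283, limma adjusted p = 0.139), with a mean of 16.8 against 41.3. As the comparisons with NS share its samples, and those with HS share the HS samples, they are not independent of each other.

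Side by side, the branches were described by the mean of each gene's log2(FPKM + 1) after centring on its own mean, over 11 sterol and 9 fatty acid genes. The sterol level was 0.69, 0.40 and 0.05 in NS, -0.56, -0.23 and 0.10 in HS, 0.17, 0.28 and 0.20 after drug-loaded MNs and -0.18, -0.57 and -0.34 after 5-Fu injection. The fatty acid level was 0.13, -0.06 and -0.10 in NS, -0.18, 0.41 and 0.39 in HS, 0.10, 0.28 and 0.02 after drug-loaded MNs and -0.14, -0.45 and -0.40 after 5-Fu injection. The sterol level lay below every NS sample in 2 of 3 HS samples and in all 3 5-Fu injection samples. The fatty acid level lay above every NS sample in 2 of 3 HS samples and below every NS sample in all 3 5-Fu injection samples. These levels leave out the rows matched by description, given further below. The fatty acid rows among them had log2 fold changes in HS of -1.40, -0.20 and -1.03. The higher fatty acid level in HS therefore holds for the 9 genes used only.

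The difference between the branches within a sample, sterol minus fatty acid, was 0.56, 0.46 and 0.16 in NS, -0.39, -0.64 and -0.29 in HS, 0.07, -0.00186 and 0.18 after drug-loaded MNs and -0.04, -0.12 and 0.06 after 5-Fu injection. Each HS sample lay below each sample of the other groups. NS and drug-loaded MNs overlapped, and so did the treated groups. No p is given for these levels, since they summarise chosen genes. They leave out the rows matched by description, so the differences hold only for tested genes with a row under their symbol.

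By group means, NS was highest for 9 of 11 sterol genes and drug-loaded MNs for the other 2, SQLE and HMGCS1, while 5-Fu injection was lowest for 7 and HS for 4. Of 10 fatty acid genes, HS had the highest mean for 5, drug-loaded MNs for 3 and NS for 2, and 5-Fu injection the lowest for 5.

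Keratinocytes and sebocytes both make these lipids, and their markers differed between the groups as well. Of 13 listed epidermis markers 8 had a row, none at 0 in any sample. In HS 7 of 8 were lower than in NS, 5 of them at an unadjusted p under 0.05 (10.2% of all genes), and KRT5 and KRT15, keratins of the basal layer, fell as DEGs (5.00% of all genes) by 1.34 and 1.55 (limma adjusted p = 0.0420 and 0.0248). KRTDAP had a log2 fold change of -1.36 (adjusted p = 0.0998). The summed FPKM of the 8 was 3331 to 5143 in NS, 1697 to 2839 in HS, 5051 to 11260 after drug-loaded MNs and 3700 to 7425 after 5-Fu injection. The part of the epidermis in the sterol levels was not tested. Against HS, 8 of 8 were higher after drug-loaded MNs (7 with an unadjusted p under 0.05, where 4.78% of all genes were, median 1.46). After 5-Fu injection 7 of 8 were higher than in HS (5 with that p, where 11.6% of all genes were, median 1.12). There KRT15 rose as a DEG (limma adjusted p = 0.0426), where 2.29% of all genes were DEGs. Between the treatments 8 of 8 were higher after drug-loaded MNs, by 0.04 to 2.05 with a median of 0.35, and 1 had an unadjusted p under 0.05 (8.15% of all genes). Within HS, replicate 1 had an epidermis level of -0.55 against -1.03 and -0.88 in the others, a sebaceous level of -0.53 against -0.31 and -0.26, and the lowest sterol level.

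Of 15 listed sebaceous gland markers 9 had a row, none at 0. In HS 8 of 9 were lower than in NS, 5 at an unadjusted p under 0.05 (10.2% of all genes), and none was a DEG. MGST1 passed the adjusted threshold alone (limma adjusted p = 0.036), as did 7.45% of all genes. HS lay wholly below NS for 7 of the 9, where 15.3% of all genes did. The lipid droplet protein CIDEA had a log2 fold change of -1.56 (limma adjusted p = 0.128) and the melanocortin receptor MC5R one of -1.26 (adjusted p = 0.0730). The summed FPKM was 218 to 325 in NS, 86.6 to 138 in HS, 153 to 203 after drug-loaded MNs and 102 to 216 after 5-Fu injection. Against HS, 9 of 9 had a higher mean in the drug-loaded MNs group, as did 7 of 9 in the 5-Fu injection group. MGST1 was higher after 5-Fu injection at a limma adjusted p of 0.0307, where 585 of all 13287 genes tested were under 0.05. In the 5-Fu injection group replicate 2 had the lowest sebaceous level, -0.48, and the lowest sterol level, and ELOVL3 was at 0 there. Their part in the levels of both branches was not tested.

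**Figure D4:**
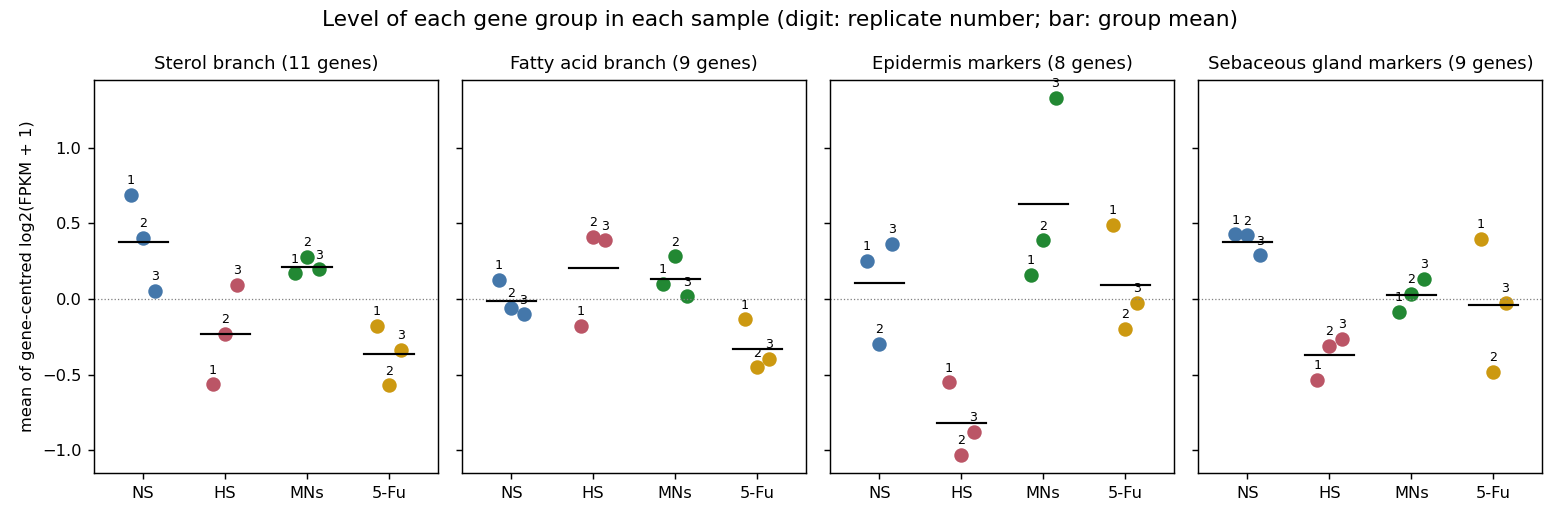
Mean of gene-centred log2(FPKM + 1) (y axis) per sample for the sterol branch, the fatty acid branch, and epidermis and sebaceous gland markers, with replicate numbers beside points and bars for means of 3 samples. HS is lowest for the epidermis markers (-1.03 to -0.55), and the sterol level after drug-loaded MNs (0.17 to 0.28) lies above that after 5-Fu injection (-0.57 to -0.18).

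Other cell types also differed between HS and NS, where 5.00% of all genes were DEGs. Of 6 fibroblast markers with a row all 6 had a higher mean in HS and 5 rose as DEGs (LUM, COL1A1, COL1A2, COL3A1 and DCN), led by LUM and COL1A1 at 4.48 and 4.34 (limma adjusted p = 0.00134 and 0.00334), with a summed FPKM of 2421 to 3401 in NS and 37300 to 48700 in HS. Of 7 Schwann cell markers, whose cells make myelin rich in cholesterol, all 7 were lower in HS, 3 as DEGs, among them SOX10 at -1.77 and MAL at -1.97, and S100B differed most, by -2.43 (adjusted p = 0.0870), with a summed FPKM of 431 to 1010 in NS and 131 to 210 in HS. Of 6 tested adipocyte markers 5 were lower in HS and none was a DEG, with CIDEC and CD36 at -1.44 and -1.35. LIPE was lower at a limma adjusted p of 0.0224, under the DEG limit in size. Of 8 macrophage markers 7 were higher and none was a DEG, with MRC1 and CD163 at 1.68 and 1.36. Of 4 skeletal muscle markers 4 were lower and PYGM was a DEG at -1.29, with CKM and ACTA1 at -1.71 and -1.61. Hair follicle markers (6 of 7 higher, KRT35 and KRT85 at 1.91 and 1.60), endothelial markers (4 of 5 higher, KDR and TEK at 0.64 and 0.56) and cartilage markers (3 of 4 lower, COL9A1 and COL2A1 at -1.49 and -0.70) held no DEG. Against HS, 3 fibroblast markers fell as DEGs after 5-Fu injection (2.29% of all genes), where the summed FPKM was 4996 to 26690. Against NS, 4 fibroblast markers rose and 1 Schwann cell marker fell as DEGs after drug-loaded MNs (0.873% of all genes). The part of these cell types in the levels of the lipid genes was not tested.

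Some listed genes without a row under their symbol were found by the protein description of rows that carry no symbol. These were picked after the names in the table had been seen and are not counted among the 25. Rows described as IDI1, TM7SF2 and EBP, of the sterol branch, gave log2 fold changes in HS of -0.85, -0.94 and -0.43 (limma adjusted p = 0.0995, 0.0563 and 0.211). After drug-loaded MNs they were higher than in HS by 0.40, 0.52 and 0.57 (adjusted p = 0.723, 0.603 and 0.416), and after 5-Fu injection by 0.12, 0.57 and 0.24 (0.816, 0.203 and 0.468). With these 3 rows the sterol median in 5-Fu injection was -0.00 and in drug-loaded MNs 0.45.

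Neighbouring rows on chromosome 18 are both described as acyl-CoA desaturase and may share reads, so the split between them is uncertain. The row ENSOCUG00000001375 (48289141 to 48299138, plus strand) stood at 318, 259 and 337 in NS, 85.2, 115 and 152 in HS, 188, 122 and 101 after drug-loaded MNs and 104, 93.6 and 228 after 5-Fu injection. It fell in HS by 1.40 on the log2 scale (SE 0.345, limma adjusted p = 0.0328), a DEG, and all scar samples stood below all NS samples. The row ENSOCUG00000014801 (48372855 to 48489674, minus strand) gave a log2 fold change in HS of -0.20 (adjusted p = 0.647). SCD5, of the same enzyme family, rose in HS. The row described as ACSL1, which activates long fatty acids, stood at 28.1, 24.99 and 32.3 in NS and 10.2, 12.8 and 18.2 in HS, and fell by 1.03 (SE 0.206, adjusted p = 0.0138), also a DEG. With these 3 rows the fatty acid median in HS was 0.06.

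Of a wider list of 11 sterol synthesis and control genes, all tested, 4 had a higher and 7 a lower mean in HS (median -0.35). Of them 1 fell as a DEG, where 5.00% of all genes were DEGs. This was IDI2, an isomerase, at 2.23, 3.71 and 1.78 in NS and 0, 0.425 and 0.526 in HS, by 1.43 (SE 0.309, limma adjusted p = 0.0196), from 0 to 30 reads. FAXDC2, a sterol hydroxylase-like gene, had a log2 fold change of -1.24 (adjusted p = 0.118). At a limma adjusted p under 0.05 alone, 1 of the 11 was higher and 2 were lower in HS, IDI2 among the 2. Of all genes, 7.45% passed that threshold.

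Of 10 tested genes for sterol uptake and release, 3 had a higher and 7 a lower mean in HS, and 1 was a DEG (5.00% of all genes). VLDLR, a lipoprotein receptor, rose as a DEG by 1.25 (SE 0.293, limma adjusted p = 0.0268), from 5.16, 2.96 and 6.40 in NS to 17.6, 8.79 and 12.2 in HS. LPIN1 is counted in this list but is a phosphatidate phosphatase, not a gene of sterol uptake or release. It had a log2 fold change of -1.11 (adjusted p = 0.0920). Of 18 further genes for fatty acid synthesis, elongation and glycerolipids, 9 were higher and 9 lower in HS (median 0.00) and none was a DEG. ME1, which supplies NADPH, gave 1.12 (adjusted p = 0.119), and ACSS2, which makes acetyl-CoA from acetate, -0.84 (adjusted p = 0.164). Compared with HS, 5-Fu injection left 16 of these 18 with a lower mean (4 with an unadjusted p under 0.05, where 14.4% of all genes were), with a median of -0.30.

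Of 7 fatty acid oxidation genes 5 had a lower mean in HS, with log2 fold changes of -0.68 for CPT1B (limma adjusted p = 0.0926) and -0.52 for ACADM (adjusted p = 0.260). No gene of these 4 wider lists was a DEG in drug-loaded MNs vs HS, 5-Fu injection vs HS or drug-loaded MNs vs 5-Fu injection in limma. At an unadjusted p under 0.05, drug-loaded MNs vs HS held 2 higher genes and 1 lower gene of these lists (11, 10, 18 and 7 genes tested), where 4.78% and 4.12% of all genes were. In 5-Fu injection vs HS 5 were higher and 6 lower (11.6% and 14.4% of all genes), a share near that of all genes. In drug-loaded MNs vs 5-Fu injection 7 were higher and 1 lower (8.15% and 6.97%).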

How the data were processed

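Bulk RNA-seq of 12 rabbit ear samples in 4 groups of 3 was analysed, with groups taken from the labels. Libraries were made from poly(A) RNA. The table deposited by the authors gives FPKM for each gene in each sample, already scaled between samples. The aligner, counting tool and genome build are not given in the sources used here. For their own tests the authors used DESeq2. Here the table holds FPKM, so a test on the log scale was used. Multiplied by gene length, 100% of the FPKM values of each sample were whole multiples of a step (tolerance 0.05 reads), from which reads were counted back. A read on a gene of 1 kilobase was worth an FPKM of 0.0768 to 0.0972. Gene names are the symbols of the table. A DEG has an adjusted p under 0.05 and a log2 fold change beyond 1 in size.

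From these values, log2(FPKM + 1) was fitted with limma 3.58.1 in R 4.3.3, as 1 linear model of 4 groups with a mean-variance trend, for the 13287 genes whose FPKM averaged 1 or more. Benjamini-Hochberg adjustment was made over all of them in each of 6 comparisons. The step was tested on simulated data, and the outcome of that test is not given here. The study's methods give 3 rabbits per group, and the labels do not tie samples to animals, so p-values measure the spread between these samples. Replicate numbers were not taken as pairs: deviations of same-numbered samples correlated at -0.19 to 0.12 on average, and the rabbits differ. Correlations of log2(FPKM + 1) between replicates were 0.920 to 0.981.

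The members and lists were chosen with earlier results of these data known. Values per sample are printed for members called as DEGs, the 4 of each branch with the largest change in HS vs NS, the 2 of each branch in each treatment vs HS, and members fixed by role (HMGCS1, SQLE, INSIG1, SREBF2, ELOVL3, FADS2, AWAT2 and SOAT1). Of the wider lipid lists and cell type marker lists, the 2 genes with the largest change in HS vs NS and most DEGs of that comparison are named. MGST1 and LIPE are named for their adjusted p alone. The promoter motif search that had been planned was not run here. Alternatives were a pseudocount of 0.1, no filter, a mean FPKM of at least 5, FPKM rescaled to reads on genes, quantile normalization, limma voom, no trend, only the groups compared, a replicate block and each sample left out. Shares of all genes printed beside counts are from the main fit only. Rows matched by description were added after the names had been seen. Some genes of the wider lists are not reported here by name.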

Additional observations from a re-analysis of the deposited data

How the results depend on the processing

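The direction of the sterol branch in HS vs NS, 11 of 11 lower, held under all alternatives run, and no result changed its direction past a threshold. With samples left out in turn, the sterol median in HS vs NS was -0.82 to -0.42, in drug-loaded MNs vs HS 0.22 to 0.53 and in drug-loaded MNs vs 5-Fu injection 0.40 to 0.63, and the fatty acid median in HS vs NS was 0.12 to 0.45. The count of members called as DEGs in HS vs NS was 1. It was 0 with no filter, 7 on FPKM rescaled to the reads on genes (HMGCS1, FDFT1, SQLE, LSS, CYP51A1, MSMO1 and ELOVL6, without SCD5), and 0 to 2 with a sample left out. For the 7, the share of all genes called in that setting is not given here. On rescaled FPKM the sterol median was -1.03 and the fatty acid median -0.18, where all genes shifted to -0.33. In 5-Fu injection vs HS the count was 0 to 1 with a sample left out. With the replicate block the count in HS vs NS was 1, no member gained or lost an adjusted p under 0.05, and the branch medians were equal. Among all genes the block gave 99 DEGs against 304 in 5-Fu injection vs HS and 23 against 116 in drug-loaded MNs vs NS, where SOAT1 no longer had an unadjusted p under 0.05. Of the values of single members under alternatives, 2993 kept their side of the DEG limits, 11 came to pass them and 8, all of SCD5 in HS vs NS, no longer did. These counts do not follow the sign of small changes. ACLY in HS vs NS, for example, ran from -0.205 to 0.214 over the settings. At an adjusted p under 0.05 alone, SQLE in HS vs NS passed in 12 of 21 settings and SCD5 in 13 of 21. FAR2, ELOVL3 and AWAT2 rest on few reads, and 3 samples a group limit what differences could be detected.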
